A study of Homo sapiens with 5 samples.

Results

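DNA replication licensing genes are described here through 9 members, chosen by Ensembl identifier: MCM3, MCM4, MCM5, MCM6, MCM7, MCM10, CDC6, CDT1 and PCNA. All 9 were among the 20001 genes with an identifier in the deposited table, and all 9 passed the filter on low counts, which left 13400 genes. Nascent RNA was measured by PRO-seq: polymerases already at work on a gene are allowed to add biotin-labelled nucleotides in isolated nuclei, and the labelled RNA is captured, so that the reads report ongoing transcription. The samples were HEK293T cells, a human embryonic kidney line that expresses the SV40 large T antigen. They carried a landing pad, an engineered locus into which constructs can be placed. It held the CAG promoter, a strong promoter assembled from viral and actin elements (3 libraries), or the PGK promoter of the phosphoglycerate kinase gene (2 libraries). All cells were grown in the same medium with serum and antibiotics, and no treatment is given in the labels. The lines were monoclonal and the number of clones per promoter is not stated, so an effect of the promoter and of the clone cannot be told apart. Separate cultures are not stated for the replicates either, so p-values refer to the spread among these 5 libraries only, which could be technical.

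Licensing is the loading of the replicative helicase onto chromosomes before S phase. CDC6 and CDT1, together with the origin recognition complex, place the ring-shaped MCM helicase around double-stranded DNA in G1, and MCM10 later helps the activated helicase to open origins. PCNA is the sliding clamp that holds DNA polymerases on the template. Genes of this group are known targets of E2F transcription factors, which RB family proteins restrain. Large T antigen binds RB family proteins.

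RefSeq promoter windows (GRCh38.p14, 250 bases before to 50 after a transcription start) were found for 7 of the 9 genes; MCM4 and MCM5 had none in the table used. These windows were searched on both strands for 8 words of the E2F type: TTTCCCGC, TTTCCCGG, TTTCGCGC, TTTCGCGG, TTTGCCGC, TTTGCCGG, TTTGGCGC and TTTGGCGG. All 7 genes had a match in at least 1 window, and 8 of their 10 windows held one, against 6.19% of 35116 windows of all genes and 7.67% of 22199 windows of protein-coding genes. Matches on opposite strands can overlap, as in MCM6, where TTTGGCGC and the reverse complement of TTTCGCGC share bases. The words were chosen with these promoters and the known E2F consensus in view, and a match is a description of the letters, not a binding site. The 30 bases around the match nearest the start are shown for each gene. The counts are given per gene and do not show which start was in use. Capitals mark the match, and each sequence reads along the strand of its gene.
MCM3, chr6:52284728-52284757, minus strand: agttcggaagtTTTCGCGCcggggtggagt
MCM6, chr2:135876511-135876540, minus strand: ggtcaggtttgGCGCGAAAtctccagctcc
MCM7, chr7:100101388-100101417, minus strand: ggggggcgacgTTTCGCGCcaatttcggtt
MCM10, chr10:13161552-13161581, plus strand: ccggttggaatTTTGGCGGgttcagctgtg
CDC6, chr17:40287875-40287904, plus strand: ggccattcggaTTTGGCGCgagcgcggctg
CDT1, chr16:88803751-88803780, plus strand: cccgcgggaaaTTTGGCGGgaaccgcgccc
PCNA, chr20:5126663-5126692, minus strand: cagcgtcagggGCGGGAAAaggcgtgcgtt
Counted from the transcription start as position 1, the first base of the match lay at -4 in MCM3, -9 in MCM7, -27 in CDT1, -59 in PCNA and -86 in MCM6. In MCM10 and CDC6 it lay at positions 6 and 8 of the transcript. Of these 7 genes, only MCM10 reached the threshold used below for a difference between the lines. MCM4 and MCM5, which also reached it, had no window, so matches cannot be compared between genes that reached it and the rest.

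Library totals were 4873883, 5003130 and 5864157 counts in the CAG line and 5582070 and 3712105 counts in the PGK line. Each of the 9 genes had between 333 and 1409 counts in every library. Levels are given as CPM, the usual depth-scaled count, here on the TMM-scaled library size. Because the counted length of each gene is not given in the sources used here, CPM values are compared between libraries and not between genes. Names other than those of the 9 genes were not paired with identifiers, so neither other replication and cell cycle genes nor markers of the labelled cell type were analysed here.

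The 9 genes did not move together between the lines. MCM4 and MCM5 were lower and MCM10 was higher in the CAG line, and the other 6 did not reach a Benjamini-Hochberg adjusted p under 0.05 in edgeR's quasi-likelihood test. The 3 called genes of 9 compare with 43.4% of all tested genes called in either direction, 22.7% higher and 20.7% lower in the CAG line. Among the 2372 tested genes whose mean level lay within the range of the 9 (101 to 207 CPM), 49.9% were called. The share called among the 9 was thus not above the background. Their median log2 fold change (CAG over PGK) was -0.05, beside 0.00 for all tested genes, and the median size was 0.12, beside 0.25 for all tested genes and 0.18 for genes of like level. The CAG and PGK libraries did not overlap for 6 of the 9, and for 61.2% of all tested genes.

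**Figure D1:**
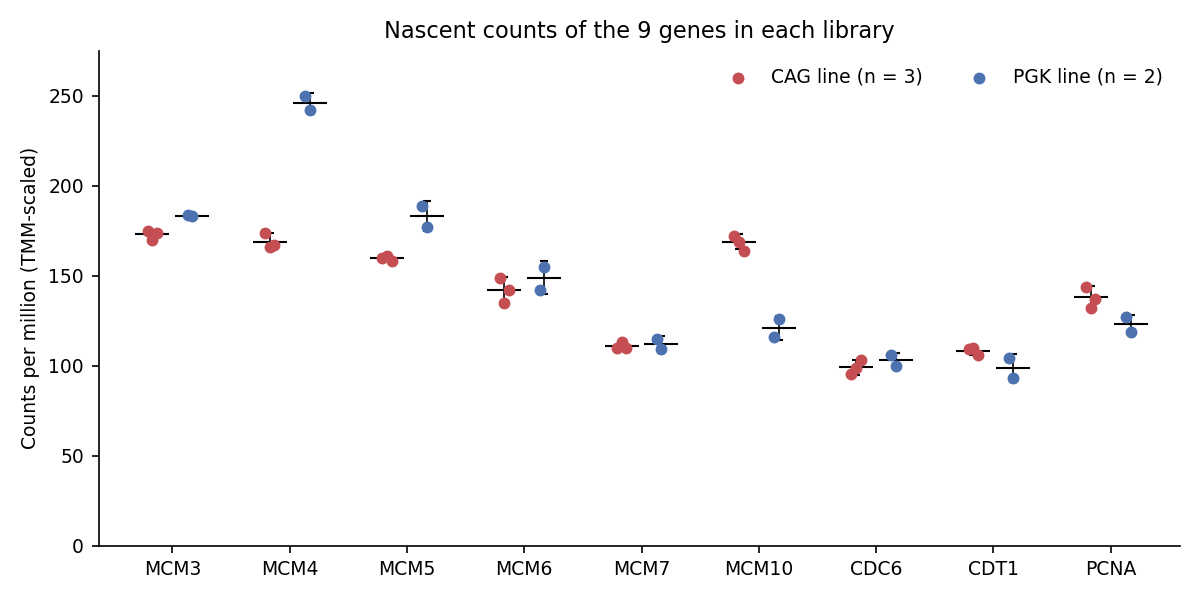
Level of each gene in CPM (vertical axis) in the 3 CAG and 2 PGK libraries (points), with the mean (horizontal line) and SD (vertical bar) of each line. MCM4 was lower and MCM10 higher in every CAG library than in every PGK library, whereas the libraries of the lines overlapped for MCM6, MCM7 and CDC6.

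The helicase subunits differed from each other in how they compared between the lines. MCM4 (ENSG00000104738), a subunit of the catalytic core of the ring, had 856, 838 and 979 counts in the CAG libraries, against 1409 and 864 counts in the PGK libraries. Scaled to library size this was 174, 166 and 167 CPM in the CAG line and 250 and 242 CPM in the PGK line. All CAG libraries were below both PGK libraries. The means were 169 ± 4.62 CPM in the CAG line (SD, n = 3) and 246 ± 5.36 CPM in the PGK line (SD, n = 2). The log2 fold change was -0.54 ± 0.07 (SE), a change of -31.4% with a 95% interval of -38.1% to -24%. Its edgeR adjusted p was 9.96e-07, and 78.2% of tested genes had a smaller difference between the lines.

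MCM5 (ENSG00000100297), which forms the gate of the ring with another subunit, was lower in the CAG line by a smaller amount. It stood at 160, 161 and 158 CPM in the CAG libraries, against 189 and 177 CPM in the PGK libraries. The libraries did not overlap, and the log2 fold change was -0.19 ± 0.07 (SE) with an adjusted p of 0.0286 in edgeR. The call was not stable. It was lost without any of the CAG libraries (adjusted p of 0.102, 0.0674 and 0.105 without replicates 1, 2 and 3) and without PGK replicate 1 (0.111), and held without PGK replicate 2 (0.00512). DESeq2 gave an adjusted p of 0.0705 for MCM5. The log2 fold change of MCM5 stayed negative in all 14 alternative settings, from -0.24 to -0.15.

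MCM3, MCM6 and MCM7, the other helicase subunits among the 9 genes, were not called. The 9 genes do not include MCM2. MCM3 (ENSG00000112118), the partner of MCM5 in the ring, had 175, 170 and 174 CPM in the CAG libraries and 184 and 183 CPM in the PGK libraries. The CAG libraries were all lower, but the log2 fold change of -0.08 had a 95% interval of -0.23 to 0.06 (edgeR adjusted p = 0.358). MCM6 (ENSG00000076003), a core subunit beside MCM4, had 149, 135 and 142 CPM in the CAG libraries and 142 and 155 CPM in the PGK libraries. The libraries of the lines overlapped, with a log2 fold change of -0.06 and a 95% interval of -0.21 to 0.09 (edgeR adjusted p = 0.52). MCM7 (ENSG00000166508), the remaining core subunit, had 110, 113 and 110 CPM in the CAG libraries and 115 and 109 CPM in the PGK libraries. These values overlapped too, and the log2 fold change of -0.02 had a 95% interval of -0.16 to 0.12 (edgeR adjusted p = 0.845). For these 3 genes the intervals do not hold a change as large as that of MCM4.

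The MCM7 locus also holds microRNAs, which lie inside the gene on its own strand in RefSeq (GRCh38.p14), so nascent MCM7 transcription passes over their hairpins. The arms that are best known from this cluster are shown with the seed (bases 2 to 8) in capitals. The first of them share the seed AAAGUGC, and the last has another seed.
hsa-miR-106b-5p, chr7:100094043-100094063, minus strand: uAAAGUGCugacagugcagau
hsa-miR-93-5p, chr7:100093815-100093837, minus strand: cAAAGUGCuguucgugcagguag
hsa-miR-25-3p, chr7:100093571-100093592, minus strand: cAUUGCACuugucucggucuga
The counts per gene do not separate host and hairpin. RefSeq also places a gene on the opposite strand, AP4M1, with a start 246 bases from that of MCM7, and its span overlaps MCM7. PCNA is overlapped by the antisense gene PCNA-AS1. Whether the authors' counting used strand is not given in the sources used here, so reads of such partners may be included in the MCM7 and PCNA values.

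Among the helicase subunits of the list, the balance of nascent counts differed between the lines through MCM4. The ratio of MCM4 counts to the mean of MCM3, MCM5, MCM6 and MCM7 was 1.17, 1.14 and 1.14 in the CAG libraries, against 1.59 and 1.55 in the PGK libraries. Library scaling does not enter this ratio. Its mean was 1.15 ± 0.0173 in the CAG line (SD, n = 3) and 1.57 ± 0.0243 in the PGK line (SD, n = 2). It was lower in all 3 CAG libraries than in both PGK libraries, by more than the spread within either line.

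The loaders CDC6 and CDT1 were not called. CDC6 (ENSG00000094804), the ATPase that recruits MCM to origins, had 95.2, 98.9 and 103 CPM in the CAG libraries and 106 and 99.8 CPM in the PGK libraries. The lines overlapped, and the log2 fold change was -0.05 with a 95% interval of -0.21 to 0.10 (edgeR adjusted p = 0.585). CDT1 (ENSG00000167513), which brings the MCM ring to the origin and is destroyed in S phase, had 109, 110 and 106 CPM in the CAG libraries and 104 and 93.4 CPM in the PGK libraries. The CAG libraries were all slightly higher, but PGK replicate 1 lay close to CAG replicate 3. The log2 fold change of 0.12 had a 95% interval of -0.03 to 0.27 (edgeR adjusted p = 0.197).

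MCM10 (ENSG00000065328), which despite its name is not a subunit of the ring, was the called gene with the opposite direction. It had 846, 857 and 964 counts in the CAG libraries, against 656 and 449 counts in the PGK libraries. This was 172, 169 and 164 CPM in the CAG line and 116 and 126 CPM in the PGK line, with every CAG library above both PGK libraries. The means were 169 ± 4.11 CPM in the CAG line (SD, n = 3) and 121 ± 6.77 CPM in the PGK line (SD, n = 2). MCM10 was 1.4-fold higher in the CAG line (95% interval 1.26 to 1.55), which is 0.48 ± 0.07 (SE) on the log2 scale (adjusted p = 6.48e-06, edgeR). A smaller difference was found for 73.9% of tested genes.

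PCNA (ENSG00000132646) lay just outside the threshold. It had 144, 132 and 137 CPM in the CAG libraries and 127 and 119 CPM in the PGK libraries. All CAG libraries were above both PGK libraries, and the log2 fold change was 0.16 ± 0.07 (SE). Its edgeR adjusted p was 0.0828, and 12 of 14 alternative settings did not call it either, among them DESeq2 (0.271) and the replicate block (0.22). It was called with upper-quartile factors (0.0388) and with all libraries thinned to the smallest total (0.0403).

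**Figure D2:**
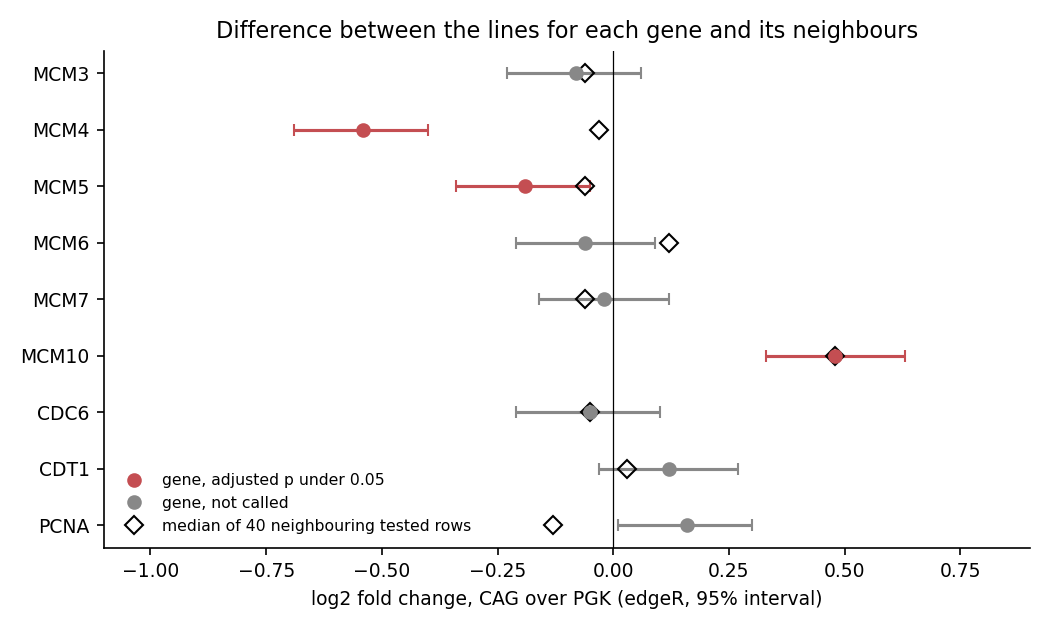
Log2 fold change, CAG over PGK, of each gene (horizontal axis; circles with 95% intervals, red where called) and the median of the 40 tested rows nearest to it in the table (open diamonds). MCM4 at -0.54 stood far from its neighbours' median of -0.03, and MCM10 at 0.48 lay on its neighbours' median of 0.48.

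The summed level of the 9 genes differed less between the lines than MCM4 or MCM10 did. The sum was 1289, 1255 and 1261 CPM in the CAG libraries and 1333 and 1305 CPM in the PGK libraries, with means of 1268 ± 17.9 CPM in the CAG line (SD, n = 3) and 1319 ± 19.7 CPM in the PGK line (SD, n = 2). As raw counts the 9 genes made up 0.13%, 0.127% and 0.126% of the CAG libraries and 0.135% and 0.125% of the PGK libraries, and these shares overlapped. Within the summed counts, MCM4 took 13.5%, 13.2% and 13.2% in the CAG libraries, against 18.7% and 18.6% in the PGK libraries. In CAG replicate 1 the exact binomial 95% interval of that share was 12.7% to 14.4%, and in PGK replicate 2, the library with the fewest counts, it was 17.5% to 19.7%. The intervals cover counting error only.

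The share of MCM10 in the same sum was 13.4%, 13.5% and 13% in the CAG libraries, against 8.73% and 9.65% in the PGK libraries. The ratio of MCM4 to MCM10 counts was 1.01, 0.978 and 1.02 in the CAG libraries, against 2.15 and 1.92 in the PGK libraries. This ratio restates the opposite changes of these genes and is not a further result. For the other 7 genes the mean share differed by at most 1.51 percentage points in size, the value for PCNA. Shares of a sum are not independent, because a smaller share of MCM4 raises those of the others.

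Each gene was also set beside the 20 tested rows before it and the 20 after it in the deposited table. No source used here says how the rows are ordered. The rows of the 9 genes did follow the order of their RefSeq chromosomes, from MCM6 on chromosome 2 (row 2768) to MCM5 on chromosome 22 (row 18889). The order within a chromosome was not checked, and the neighbouring rows were not matched to gene names. MCM10 lay among rows that were higher in the CAG line as a whole. Of its 40 neighbours, 34 were called higher by edgeR and the others were not called, and their median log2 fold change was 0.48, equal to that of MCM10. Exactly 20 of the 40 had a smaller log2 fold change than MCM10. Relative to its mean over the 5 libraries, the log2 level of MCM10 was 0.22, 0.20 and 0.15 in the CAG libraries and -0.34 and -0.23 in the PGK libraries. The median of its neighbours was 0.16, 0.16 and 0.22 in the CAG libraries and -0.30 and -0.23 in the PGK libraries. The difference of MCM10 between the lines thus equalled the median difference of the rows around it.

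MCM4 did not share the level of its wider surroundings. The median of its 40 neighbours was -0.03, with 3 called higher and 6 lower, and 3 of the 40 had a lower log2 fold change than MCM4. The gap to the median was -0.52, and -0.56 or -0.50 with 10 or 50 rows on each side. The rows directly beside it were lower as well. The tested row before MCM4 stood at -0.68 on the log2 scale (edgeR adjusted p = 7.1e-08), and the next tested rows after it had -0.47 (7.38e-06) and -0.65 (3.93e-06). The row before had 652, 621 and 673 CPM in the CAG libraries, against 992 and 1084 CPM in the PGK libraries. The next tested rows outward on each side were not called, with -0.24 before MCM4 (adjusted p = 0.492) and 0.14 after it (0.828). Both rows had at most 8.69 CPM in any library and SEs of 0.26 and 0.45, so neither bounds the run. The tested row 3 before MCM4, at 231 to 271 CPM, was not called either (0.00 ± 0.08, SE; adjusted p = 0.981). On the other side, the tested row 4 after MCM4 was called higher in the CAG line, at 0.66. The run was noticed after the values were seen, and its cause was not tested.

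**Figure D3:**
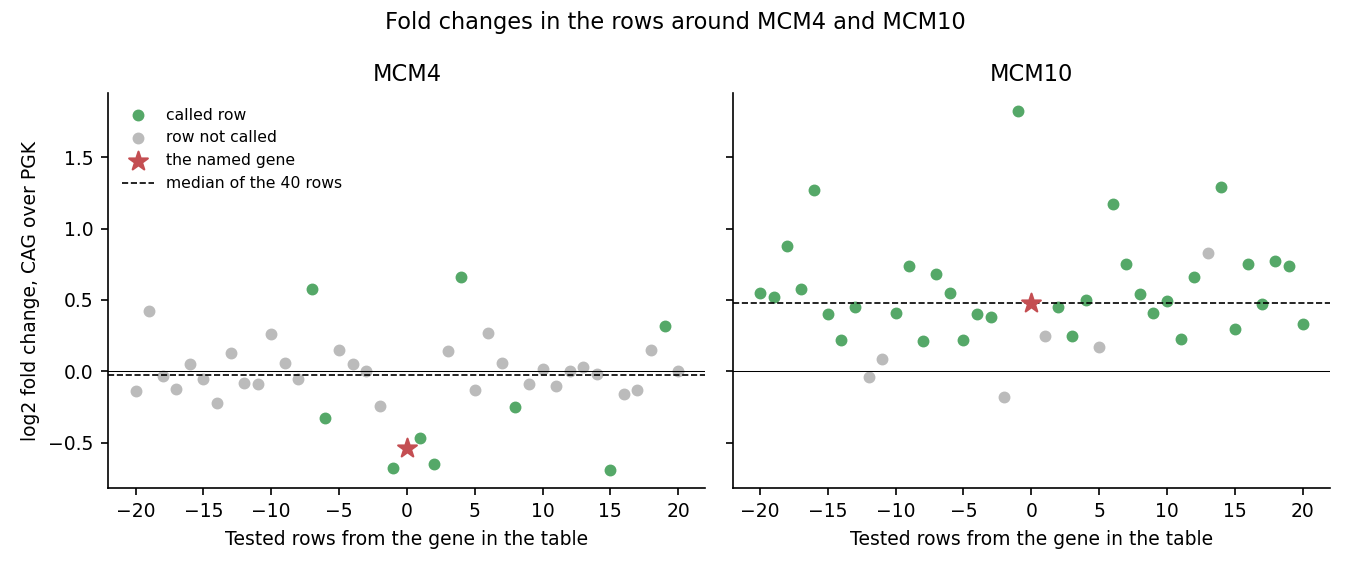
Log2 fold change, CAG over PGK (vertical axis), of the 20 tested rows on each side of MCM4 and of MCM10 (stars) by distance in tested rows; green rows were called and grey rows were not. Nearly all rows around MCM10 lie above 0, with a median of 0.48, whereas around MCM4 the rows directly beside it are low and the median is -0.03.

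The other genes showed smaller gaps to their neighbours than MCM4 did. PCNA was 0.29 above its neighbours' median of -0.13 on the log2 scale, with 13 of 40 neighbours called lower and 3 higher. MCM6 was 0.18 below its neighbours' median of 0.12. MCM5 was 0.14 below its neighbours' median of -0.06. For MCM3, MCM7 and CDC6 the gap was at most 0.04 in size, and for CDT1 it was 0.09. With 10 or 50 rows on each side, the gaps of MCM3, MCM6, CDT1, MCM7 and PCNA moved by more than the SD within lines, that of MCM3 to 0.12 with 10 rows. Around MCM7, 1 of the 40 neighbours was called higher and 4 lower, the fewest among the 9 genes.

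Of 14 alternative settings, 13 called MCM4 and 13 called MCM10, and their log2 fold changes ran from -0.57 to -0.52 for MCM4 and from 0.41 to 0.54 for MCM10. The setting that did not call them was edgeR's glmTreat, which tests for a change larger than 0.5 on the log2 scale; it called 0 of the 9 (adjusted p = 0.582 for MCM4) and 8.54% of all tested genes, and 0 of the 9 had an unadjusted p under 0.05 in it. DESeq2 called MCM4 and MCM10 among the 9, and 28.3% of the 13934 genes for which it gave an adjusted p. With the replicate number as a block, edgeR again called MCM4 and MCM10, and 34.8% of all tested genes. MCM3, MCM6, MCM7, CDC6 and CDT1 were not called in any of the 14 settings.

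**Figure D4:**
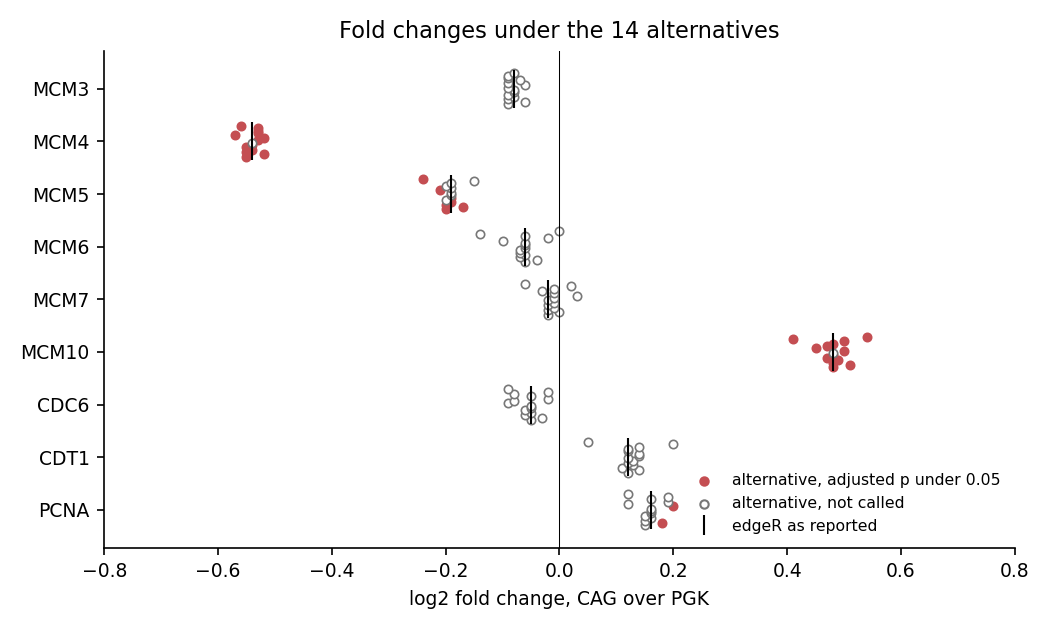
Log2 fold change, CAG over PGK, of each gene under the 14 alternative settings (points, filled where the adjusted p was under 0.05) and as reported (black mark). MCM4 stayed between -0.57 and -0.52 and MCM10 between 0.41 and 0.54, whereas calls of MCM5 and PCNA depended on the setting.

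Genes with a profile like that of the group were sought by the Euclidean distance between log2 CPM values, each centred on its mean over the 5 libraries, and the median profile of the 9. That median profile was almost flat, at -0.02 in each CAG library and at 0.05 and -0.01 in the PGK libraries. The nearest tested gene was ENSG00000101412, at a distance of 0.011, with 72 CPM in each of the CAG libraries and 75.5 and 72.6 CPM in the PGK libraries. The next was ENSG00000177885, at 0.019, with 137, 135 and 138 CPM in the CAG libraries and 144 and 139 CPM in the PGK libraries. Neither was called (edgeR adjusted p = 0.686 and 0.585), so the likeness is that of genes that hardly varied among these libraries.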

How the data were processed

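PRO-seq libraries of the CAG line (3) and the PGK line (2) were compared. The authors deposited raw counts per Ensembl identifier; columns were matched to samples by description, and 0 were left unmatched. The submitters' processing notes name featureCounts 2.0.3, UMI-tools, HISAT2 2.2.1, Bowtie2 2.5.1, cutadapt and fastp 0.23.2, and the build hg19; the annotation, settings or strand handling behind them is not given in the sources used here. The 18 rows without an identifier (at most 0.000448% of a library) were left out. Genes were kept by filterByExpr (minimum count 10, minimum total 15), scaled by TMM and tested over all 13400 genes with edgeR's quasi-likelihood F test, as CAG over PGK without covariates (R 4.3.3, edgeR 4.0.16). Standard errors were obtained by dividing the size of a log2 fold change by the square root of its F. Log2 CPM used a prior count of 2. Alternatives used DESeq2 1.42.0 and limma 3.58.1, other scaling and filters, thinning and fewer libraries. The edgeR test was tested on simulated counts of 13248 genes, with 100 genes changed at each size. It recovered 75% of changes of 0.5 and 97% of changes of 1.0 on the log2 scale, and called 11 unchanged genes. The simulation changed a far smaller share of genes than the 43.4% called in the data. Its changed genes were drawn from a wide range of levels, so the recovered shares are not specific to the level of the 9 genes. The members are the 9 genes named; genes with a like profile were taken by smallest distance, at most 2 printed. The members, lists and tests were chosen with earlier results of these data known. Lists of other replication and cell cycle genes and of cell type markers needed names for identifiers and were not run. Sequences are from RefSeq, GRCh38.p14, matched by symbol.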

Additional observations from a re-analysis of the deposited data

Results flagged for a closer look

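Some counts belonged to no identified gene and entered no comparison. In total, 95 counts fell in the 18 rows that carry no identifier: 21, 15 and 21 in the CAG libraries and 25 and 13 in the PGK libraries. This is above the limit that a count of 0 allows (3 counts). Neither line had 4 libraries, so no library was tested for standing apart.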

How the results depend on the processing

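All alternatives were fixed with earlier results of these data known. The 5818 called genes (3046 higher, 2772 lower in the CAG line) became 1145 (714 higher, 431 lower) and the 3 called licensing genes 0 under glmTreat against 0.5, which tests a stricter hypothesis. Leaving out 1 library gave 4754 to 5689 genes and 2 or 3 licensing genes. A single remaining PGK library was taken to have the spread of the CAG libraries. Of all calls, 56.1% were higher in the CAG line with upper-quartile factors, against 52.4% with TMM; DESeq2 called 3943 genes. The median of the 9 genes ran from -0.06 to -0.02 with 1 library left out. MCM7 turned sign under upper-quartile factors (0.00), after thinning (0.03) and without PGK replicate 1 (0.02), in no case called. A replicate block gave 4667 genes, without MCM5 (adjusted p = 0.194). Libraries with the same number deviated from their line means with correlations of 0.038 and -0.068, and no pairing by number was assumed.

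With 10 neighbouring rows on each side, the gap to the neighbours became 0.12 for MCM3, -0.36 for MCM6, 0.02 for MCM7, 0.05 for CDT1 and 0.19 for PCNA. With 50 it became -0.04 for MCM6, 0.17 for CDT1 and 0.22 for PCNA. Shares of the summed counts (CAG minus PGK, percentage points) moved to -0.0877 for MCM3 after thinning. With 1 library left out they ran from -0.702 to 0.518 for MCM6, 3.64 to 4.56 for MCM10 and 0.705 to 1.37 for CDT1, the ends set by leaving out PGK replicate 1 or 2. The causes were not tested. The standard error was 0.07 (log2) for each of the 9 genes; depth and the spread between libraries were not separated in it.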
